A study of Mus musculus with 4 samples.

Results

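Transcripts of 10 immediate early genes were followed in MC38 tumor cells: the orphan nuclear receptor genes Nr4a1, Nr4a2 and Nr4a3, the zinc finger genes Egr1, Egr2 and Egr3, the nuclear protein gene Csrnp1, and the immediate early response genes Ier2, Ier3 and Ier5. They were taken by name, by matching the Ensembl identifiers of the count files to mouse symbols, and all 10 of the 10 named genes were found among 53379 genes. The set was drawn up with earlier results of the same responder against non-responder contrast known, so the levels and fold changes of these genes are a description of the libraries and carry no test.

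The cells came from subcutaneous tumors of MC38, a mouse colon adenocarcinoma line that here carries GFP, grown in C57BL/6 mice from 50000 inoculated cells. All mice had received anti-PD-1, an antibody that blocks an inhibitory receptor of T cells, at a dose described as sub-optimal (100 µg on day 12, day 15, day 18 and day 22) and untreated tumors were not analysed here. Cancer cells were sorted from tumors labelled non-responder (2 libraries) and responder (2 libraries) and bulk RNA-seq was made from them. The labels give neither the age of the animals nor the rule and day by which response was scored. Whether both libraries of a group stem from different mice is not stated either, so p-values measure only the spread between libraries, which may be technical.

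Immediate early genes are transcribed within minutes of a stimulus, without the need for new protein, when kinases of the ERK, p38 and cyclic AMP pathways activate factors such as SRF with its ETS-family partners and CREB that already sit at their promoters. NR4A receptors can act without a known physiological ligand, and their activity depends in part on their abundance. EGR proteins bind GC-rich promoters and switch on a later wave of genes, among them their own corepressors. The same genes also respond to mechanical stress, enzymatic digestion and cell sorting, steps that are common in preparing tumor cells.

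Promoter sequence is a property of these genes that the choice by expression did not use. RefSeq promoter windows on GRCm38.p6 matched 7 of the 10 genes (Nr4a1, Nr4a2, Nr4a3, Egr2, Csrnp1, Ier3 and Ier5), and the 250 bases before each start were searched on both strands. Below are the NR4A windows, shown because they share a repeated motif, and an Egr2 window, shown because it holds another one. Letters run 5′ to 3′ on the gene's strand, capitals mark TGACG, the core of a CREB site, on either strand, and the CArG box, the binding site of SRF. Bases that the count files annotate as exon were left out, which shortens the Nr4a3 stretch to 98 bases.
Nr4a1, chr15:101266596-101266845, plus strand: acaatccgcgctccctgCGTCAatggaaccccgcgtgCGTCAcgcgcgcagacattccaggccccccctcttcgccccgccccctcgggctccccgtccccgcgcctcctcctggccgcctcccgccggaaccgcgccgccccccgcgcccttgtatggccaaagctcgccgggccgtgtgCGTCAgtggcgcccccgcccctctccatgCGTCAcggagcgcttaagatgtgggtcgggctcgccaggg
Nr4a2, chr2:57124004-57124253, minus strand: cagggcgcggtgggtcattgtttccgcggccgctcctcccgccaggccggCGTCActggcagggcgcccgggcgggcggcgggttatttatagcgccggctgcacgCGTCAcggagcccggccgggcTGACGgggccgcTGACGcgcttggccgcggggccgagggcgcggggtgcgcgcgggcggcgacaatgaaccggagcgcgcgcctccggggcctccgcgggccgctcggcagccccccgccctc
Nr4a3, chr4:48045055-48045152, plus strand: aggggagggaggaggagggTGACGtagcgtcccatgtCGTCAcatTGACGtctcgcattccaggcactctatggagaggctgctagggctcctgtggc
Egr2, chr10:67537619-67537868, plus strand: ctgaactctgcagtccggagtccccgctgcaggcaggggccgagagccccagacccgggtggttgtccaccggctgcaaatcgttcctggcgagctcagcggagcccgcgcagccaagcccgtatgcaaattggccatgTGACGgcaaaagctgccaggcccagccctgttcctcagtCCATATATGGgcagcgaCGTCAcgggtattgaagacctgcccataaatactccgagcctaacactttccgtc
Each of the NR4A windows held 4 copies of TGACG within 250 bases, a number reached by 45 of 32851 promoter windows (0.137%), while at least 1 copy was in 17.8% of windows. In Nr4a3, 1 of the 4 copies lies in annotated exon and is not printed. The CArG box was in 4 of the 5 windows of Egr2, most of which overlap each other, and in no window of the other matched genes, against 1.47% of all windows. Windows of Csrnp1 and Egr2 held TGACG too, and those of Ier3 and Ier5 held neither motif. The EGR site GCGNGGGCG was present in Nr4a1 and Nr4a2, as in 5.33% of all genes with a promoter window. It overlapped in part with the letters GGGCGG. Every matched gene had GGGCGG in at least 1 window, as did 35.4% of all genes with a promoter window. The full CREB site TGACGTCA, which contains TGACG on both strands, and the NR4A monomer site AAAGGTCA were in none of these windows (1.55% and 1.34% of all windows). These matches describe the letters only.

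The genes are compact. Their median genomic span was 6063 bases against 19881 bases for all genes tested, and 9 of 10 lay below that median, with Nr4a3 (41295 bases) the exception. Ier2 and Ier5 consist of 1 exon block, as do 10.4% of genes tested. On mm10, Nr4a1 (ENSMUSG00000023034) lies on chromosome 15 from 101266846 to 101274792, Egr2 (ENSMUSG00000037868) on chromosome 10 from 67535475 to 67542188, Csrnp1 (ENSMUSG00000032515) on chromosome 9 from 119971163 to 119984658, and Ier5 (ENSMUSG00000056708) on chromosome 1 from 155096361 to 155099636. Nr4a2 (ENSMUSG00000026826) lies on chromosome 2 from 57106830 to 57124003, Nr4a3 (ENSMUSG00000028341) on chromosome 4 from 48045153 to 48086447, and Egr1 (ENSMUSG00000038418) on chromosome 18 from 34859823 to 34864984. Egr3 (ENSMUSG00000033730) lies on chromosome 14 from 70077203 to 70082614, Ier2 (ENSMUSG00000053560) on chromosome 8 from 84661331 to 84662852, and Ier3 (ENSMUSG00000003541) on chromosome 17 from 35821684 to 35822923. Counts cover all annotated exons of each gene. Csrnp1 lies wholly within the span of Cx3cr1, a macrophage receptor gene on the same strand, but shares 0 exonic bases with it. Cx3cr1 had 93 and 303 counts in non-responder and 13 and 74 counts in responder replicates 1 and 2, the opposite direction to Csrnp1. On the opposite strand, 1700019L13Rik shares 224 exonic bases with Csrnp1. It had 4 and 0 counts in non-responder and 3 and 3 counts in responder replicates 1 and 2.

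Total counts were 18447041 to 21754063 per library, and mitochondrially encoded transcripts made up 3.07% to 5.61% of them. All 10 genes passed the filter on low counts, and the least counted, Egr3, had 29 to 47 counts per library. Colon epithelial markers were nearly absent: Epcam had at most 0.157 CPM, Krt8 at most 0.157 CPM and Krt20 was at 0 in all 4 libraries, and 7 of the 10 were too low to be tested. CPM are counts scaled by library size and TMM factor, and RPKM are CPM per kilobase of exon.

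Across the set, 9 of 10 genes were higher on average in responder tumor cells, where 48.9% of the 13792 genes tested were higher. The median log2 fold change, responder relative to non-responder, was 1.08, against -0.01 over all genes tested. In 6 of 10 genes (Nr4a1, Nr4a3, Egr1, Egr2, Csrnp1 and Ier5) both responder libraries lay above both non-responder libraries, as in 18.8% of all genes tested, and in 1, Egr3, both lay below, as in 17.8%. In edgeR's quasi-likelihood test with Benjamini-Hochberg adjustment over all genes, 0 of 10 passed an adjusted p of 0.05, and so did 0% of all genes. At an unadjusted p under 0.05 there were 6 of 10, all higher, beside 2.57% of all genes in that direction. DESeq2 called 3 of the 10 as higher (Nr4a1, Egr1 and Ier5), beside 0.102% of all genes, while with limma-voom there were 0 calls and 5 of 10 at an unadjusted p under 0.05, all higher, beside 2.7% of all genes. With 1 library left out, edgeR called 1 of the 10 without non-responder replicate 1, 5 without the other non-responder library, 3 without responder replicate 1 and 2 without the other responder library, all higher. The shares of all genes called higher there were 0.0485%, 1.94%, 0.144% and 0.159%. Without a filter on low counts 6 of the 10 were called, all higher, beside 0.233% of all genes. As the genes were chosen on this contrast, these shares say nothing further about them. In bulk RNA, fewer cells that express a gene and less of its RNA per cell cannot be told apart.

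**Figure D1:**
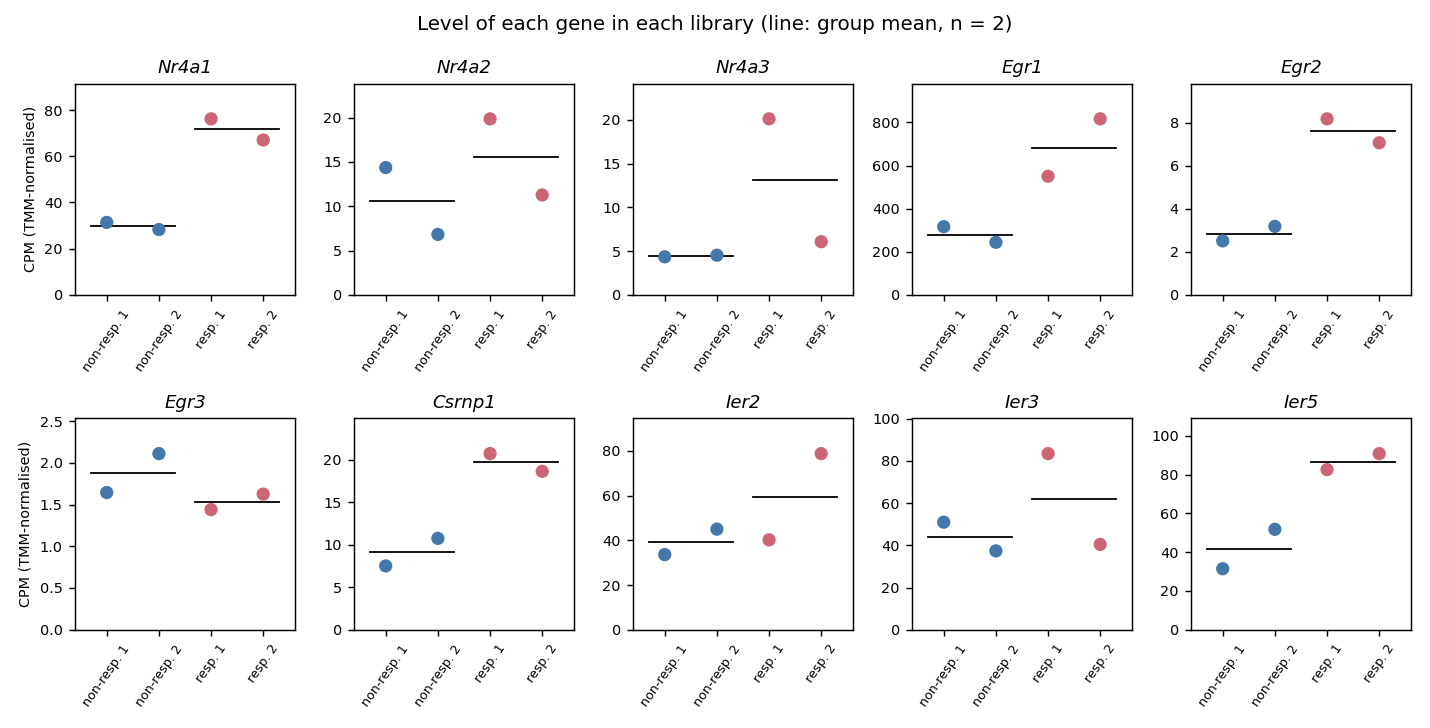
Level of each of the 10 genes in CPM (vertical axis from 0, TMM-normalised) in the 4 libraries on the horizontal axis; blue points are non-responder and red points responder libraries, and lines are group means of n = 2. Nr4a1, Egr1, Egr2, Csrnp1 and Ier5 show both responder points well above the non-responder points, Nr4a3 and Ier3 are high in responder replicate 1 and Ier2 in responder replicate 2.

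Among the NR4A receptors, Nr4a1 (NUR77), the most abundant of the family, had the smallest SE of the 10 genes. It had 31.4 and 28.3 CPM in non-responders against 76.2 and 67.1 CPM in responders. Replicates stayed close to each other in both groups, and the lowest responder value was 2.14 times the highest non-responder value. The log2 fold change was 1.26 (SE 0.17), or 2.40-fold, and it ranged from 1.16 to 1.35 with any 1 library left out. Nr4a2 (NURR1), better known from dopaminergic neurons, had 14.4 and 6.83 CPM in non-responders against 19.9 and 11.3 CPM in responders. The groups overlapped, since non-responder replicate 1 lay above responder replicate 2. Its log2 fold change of 0.56 (SE 0.43) was 0.08 when responder replicate 1 was left out and 1.19 when non-responder replicate 1 was. It was 0.11 without the other non-responder library and 0.91 without the other responder library.

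Nr4a3 (NOR1) was high in a single library. It had 4.35 and 4.54 CPM in non-responder replicates 1 and 2, and in responders 20.1 CPM in replicate 1 and 6.08 CPM in replicate 2. Responder replicate 2 was only 1.34 times the higher non-responder library, whereas responder replicate 1 was 3.31 times responder replicate 2. The log2 fold change of 1.56 (SE 0.57), the largest of the 10 genes, was 0.45 without responder replicate 1 and was 2.18 without responder replicate 2.

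Per kilobase of exon, Nr4a1 made up most of the NR4A transcripts in every library. Its share of the summed NR4A RPKM was 74.8% and 82.4% in non-responder and 78.9% and 87.7% in responder replicates 1 and 2. Nr4a2 held 20.9%, 12.1%, 12.5% and 8.99% in the same order, and Nr4a3 4.29%, 5.46%, 8.60% and 3.29%. The ranges of these shares overlapped between the groups. Summed NR4A levels were 17.0 and 13.9 RPKM in non-responders against 39.0 and 30.9 RPKM in responders, so both responder values were above both others.

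Egr1, the founding EGR factor and the most abundant gene of the set, had 316 and 244 CPM in non-responders against 550 and 817 CPM in responders. Responder replicate 2 was 1.48 times responder replicate 1, and the groups did not overlap. Its log2 fold change was 1.29 (SE 0.26), 0.98 without responder replicate 2 and 1.54 without responder replicate 1. Egr2 (KROX20), known for myelination and T cell tolerance, was scarce, with 2.51 and 3.19 CPM against 8.19 and 7.08 CPM. The lowest responder value was 2.22 times the highest non-responder value, and the log2 fold change was 1.42 (SE 0.31).

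Egr3 was the exception in the set. It had 1.64 and 2.11 CPM in non-responders against 1.44 and 1.63 CPM in responders, a log2 fold change of -0.29 (SE 0.41). These values rest on 34, 47, 29 and 31 counts, whose exact Poisson 95% intervals, covering counting error only, were 23.6 to 47.5, 34.5 to 62.5, 19.4 to 41.7 and 21.1 to 44.0 counts. The SE of the Egr3 fold change was larger than the fold change itself. Within the family, Egr1 made up 97.5% to 98.7% of the summed EGR RPKM in the 4 libraries.

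Csrnp1 (AXUD1), a nuclear protein first described as induced by AXIN1, had 7.50 and 10.7 CPM in non-responders against 20.7 and 18.6 CPM in responders. Both responder libraries were high and close to each other. The log2 fold change was 1.11 (SE 0.25), or 2.15-fold, with a range of 0.88 to 1.39 when 1 library was left out.

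The IER genes differ from each other in sequence and role, and here also in pattern. Ier5, a cofactor that promotes activation of the heat-shock factor HSF1, had 31.5 and 51.8 CPM in non-responders against 82.6 and 90.9 CPM in responders. The groups were apart, with the lowest responder value 1.59 times the highest non-responder value. Its log2 fold change was 1.06 (SE 0.25), 0.75 when non-responder replicate 1 was left out and 1.46 when the other non-responder library was.

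Ier2, a nuclear protein linked to cell motility, had 33.6 and 45.0 CPM in non-responders, and in responders 40.2 CPM in replicate 1 and 78.8 CPM in replicate 2. Only responder replicate 2 stood above both non-responder libraries. The log2 fold change of 0.60 (SE 0.34) was 0.03 when responder replicate 2 was left out and 1.00 when responder replicate 1 was. Leaving out non-responder replicate 1 gave 0.41, and leaving out the other non-responder library gave 0.82.

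Ier3 (IEX-1), a regulator of apoptosis and ERK signalling, had 51.0 and 37.4 CPM in non-responders, and in responders 83.5 CPM in replicate 1 and 40.4 CPM in replicate 2. Here responder replicate 1 stood apart, and responder replicate 2 lay between the non-responder libraries. The log2 fold change of 0.49 (SE 0.37) turned to -0.13 without responder replicate 1 and was 0.92 without responder replicate 2. Summed IER levels were nevertheless 76.8 and 78.4 RPKM in non-responders against 125 and 115 RPKM in responders, so both responder sums were higher. Ier3 made up 58.8% of the sum in responder replicate 1 and 31.0% in responder replicate 2, and Ier2 made up 21.1% and 44.9%.

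**Figure D2:**
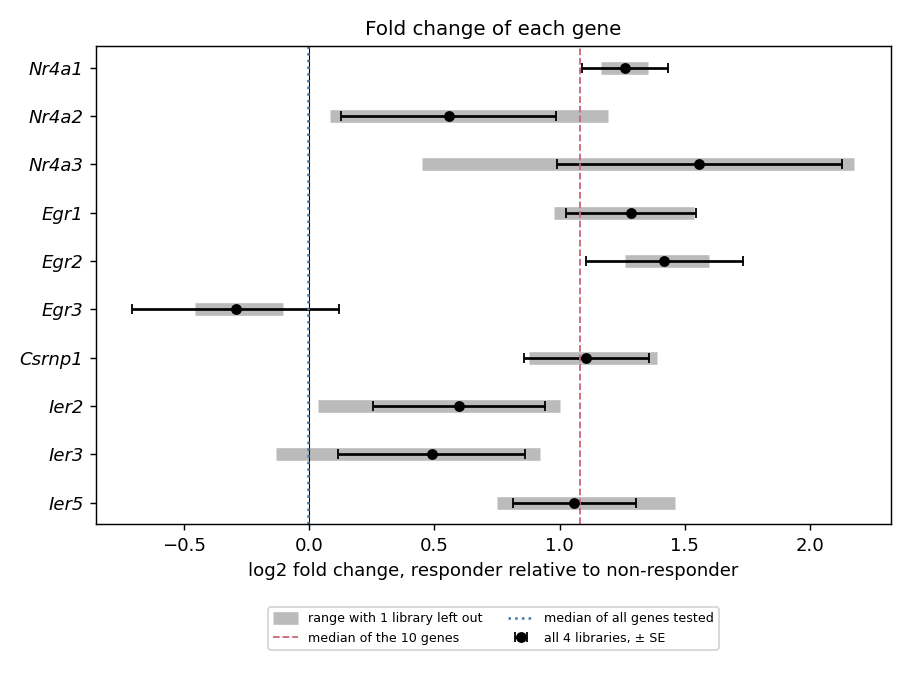
Log2 fold change of each gene, responder relative to non-responder (horizontal axis), in the fit of all 4 libraries (black point, bar ± SE) with the range of the fits that leave out 1 library (grey bar); the dashed line is the median of the 10 genes, 1.08, and the dotted line that of all genes tested, -0.01. The grey bars of Nr4a2, Nr4a3, Ier2 and Ier3 are the widest, and that of Ier3 crosses 0.

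The responder libraries thus divided the set. Nr4a3, Ier3 and Nr4a2 were higher in responder replicate 1, by 3.31, 2.07 and 1.76 times, and Ier2 and Egr1 were higher in responder replicate 2, by 1.96 and 1.48 times. Nr4a1, Egr2, Egr3, Csrnp1 and Ier5 differed by at most 1.16 times between these libraries. In all, 6 of 10 genes had their highest value in responder replicate 1 (17.6% of all genes tested did), 3 in responder replicate 2 (25.4%) and Egr3 in non-responder replicate 2.

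**Figure D3:**
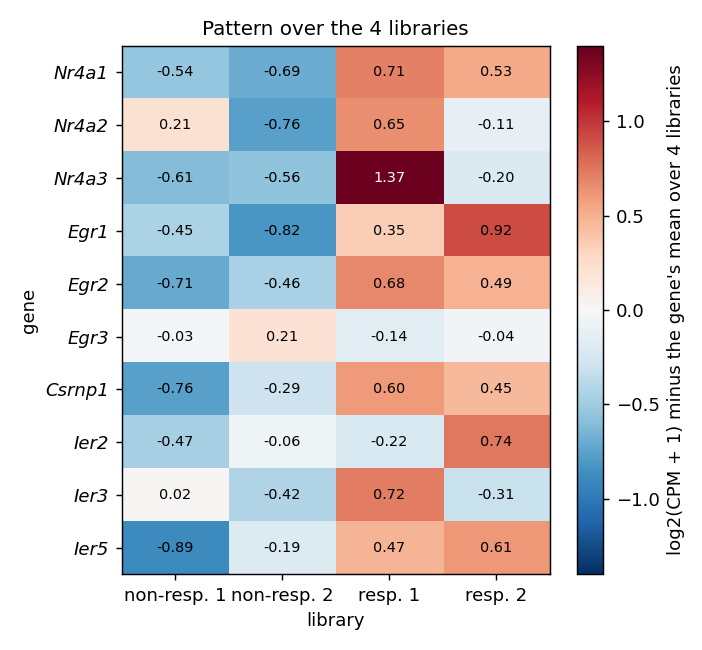
Pattern of the 10 genes (rows) over the 4 libraries (columns), as log2(CPM + 1) minus the mean of each gene over the libraries; red is above and blue below that mean, with the value in each cell. Nr4a3 reaches 1.37 in responder replicate 1 and -0.20 in responder replicate 2, and Ier2 goes the other way, with -0.22 and 0.74.

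Per kilobase of exon, the order of mean levels over the 4 libraries was Egr1 (107 RPKM), Ier3 (46.9), Ier2 (32.5), Nr4a1 (20.5), Ier5 (19.6), Csrnp1 (4.14), Nr4a2 (3.22), Egr2 (1.54), Nr4a3 (1.46) and Egr3 (0.387 RPKM). Neighbours in this order had overlapping ranges over the 4 libraries, except Ier5 above Csrnp1 and Nr4a3 above Egr3, whose ranges were apart. Egr1 was above Ier3 in all 4 libraries, while Nr4a1 and Ier5 took either order, each being higher in 2. Egr1 lay at the 97.9th percentile of the RPKM of genes tested and Egr3 at the 9.4th.

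Other immediate early genes, from the AP-1, KLF, ZFP36, BTG, DUSP and related families, were listed with earlier results known. Of 41 listed, 40 were tested: 34 were higher and 6 lower on average, where 48.9% of all genes tested were higher. In edgeR 0 passed an adjusted p of 0.05 in either direction, as over all genes tested, where there were 0 calls. At an unadjusted p under 0.05 there were 11 higher and 0 lower, beside 2.57% of all genes higher. Both responder libraries lay above both others in 18 (18.8% of all genes tested) and below both in 3 (17.8%). The median log2 fold change of the 40 genes was 0.49 against -0.01 over all genes tested. It was 0.31 without responder replicate 2 and 0.67 without non-responder replicate 2. In 20 of 40 the highest value was in responder replicate 2, as in 25.4% of all genes tested.

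The AP-1 gene Fos, whose protein pairs with JUN, had a log2 fold change of 1.03 (SE 0.44). The values for Fosb, Jun and Junb were 1.21 (SE 0.63), 0.47 (SE 0.30) and 0.58 (SE 0.23). Groups were apart for Junb and for Fos, with 213 and 204 CPM in non-responders against 240 and 608 CPM in responders. They overlapped for Fosb (222 and 172 against 211 and 701 CPM) and Jun (732 and 540 against 652 and 1106 CPM). In Fosb and Jun only responder replicate 2 stood above both non-responder libraries. Atf3, a stress-induced repressor, had 7.79 and 8.31 CPM in non-responders against 10.8 and 15.8 CPM in responders. Zfp36, which destabilises AU-rich messenger RNA, had 53.6 and 60.5 against 62.6 and 118 CPM. Dusp1, a phosphatase of MAP kinases, had 58.9 and 84.9 against 110 and 134 CPM, and in these 3 genes the groups did not overlap and responder replicate 2 was the highest. Dusp6, a phosphatase that restrains ERK, had 69.0 and 69.3 against 65.9 and 118 CPM, so its groups overlapped. Log2 fold changes of Klf6, Btg2 and Myc were 0.28 (SE 0.22), 1.01 (SE 0.30) and 0.39 (SE 0.22). The groups overlapped for Klf6 and were apart for Btg2 and Myc.

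Components that act upstream had medians near that of all genes tested. Of 16 transcription factors and coactivators 5 were higher and 11 lower (median -0.04), where 48.9% of all genes tested were higher. Of 10 kinases 5 were higher and 5 lower (median -0.02). After adjustment edgeR called 0 of them in either direction, as it did over all genes tested. At an unadjusted p under 0.05 there was 1 factor, lower, and 0 kinases, beside 501 lower and 355 higher of all 13792 genes tested. That factor, Mef2c, a MADS-box regulator of muscle and neurons, had a log2 fold change of -1.34 (SE 0.42). It is named after its value was seen. Srf had 61.0 and 53.0 CPM in non-responders against 71.5 and 67.1 CPM in responders, a log2 fold change of 0.28 (SE 0.17). Its ETS-family partners Elk1, Elk3 and Elk4 gave 0.11 (SE 0.21), -0.52 (SE 0.22) and -0.04 (SE 0.18) on the same log2 scale, and Creb1 gave 0.02 (SE 0.17). Transcript levels of these proteins do not report their phosphorylation.

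Partners of the encoded proteins were read next, and the groups overlapped in all 4 tested, as they did in 8757 of all 13792 genes tested. Nab1 and Nab2, the corepressors that bind EGR factors, had log2 fold changes of -0.09 (SE 0.21) and -0.09 (SE 0.19). Rxra and Rxrb, nuclear receptors of the RXR family, whose members can pair with NR4A1 and NR4A2, had 0.04 (SE 0.20) and 0.32 (SE 0.26). Of the paralogs, Egr4 had 0.387 and 0.180 CPM in non-responders against 1.14 and 0.734 CPM in responders, both responder values above both others at a low level. Csrnp2 and Ier5l had log2 fold changes of 0.28 (SE 0.25) and -0.20 (SE 0.21), with groups that overlapped.

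**Figure D4:**
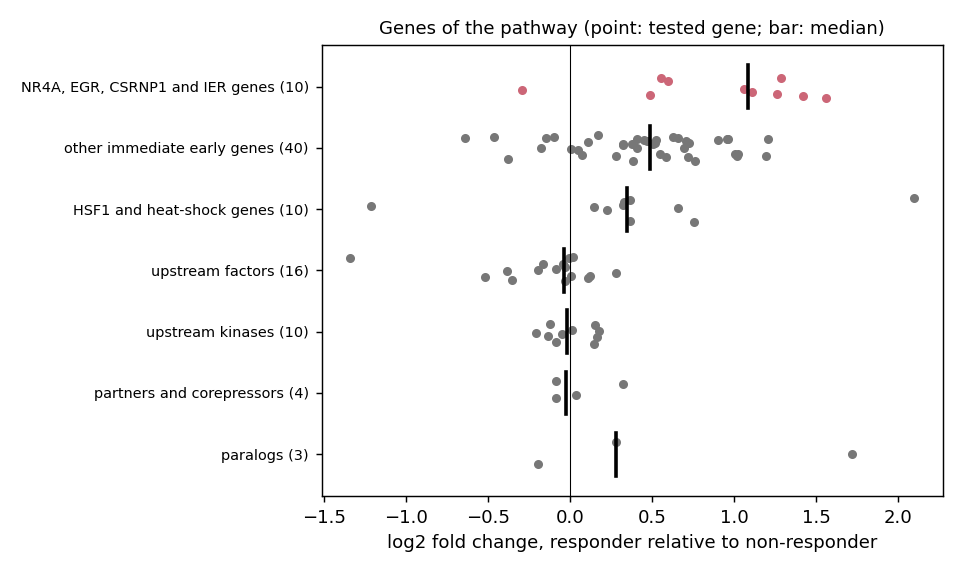
Log2 fold change, responder relative to non-responder (horizontal axis), of each tested gene (points) of 7 gene groups (vertical axis, number tested in brackets), with the median of each group as a bar. The medians are 1.08 for the 10 NR4A, EGR, CSRNP1 and IER genes and 0.49 for other immediate early genes, and between -0.04 and -0.02 for upstream factors, kinases and partners.

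Heat-shock genes were also higher on average in responders, mostly with their highest value in responder replicate 2. Of 10 tested, 9 were higher and 1 lower (median 0.35), where 48.9% of all genes tested were higher. By edgeR 0 were called after adjustment, as over all genes tested. At an unadjusted p under 0.05 there were 3 higher and 0 lower, beside 2.57% of all genes higher. The highest value was in responder replicate 2 for 8 of them, as for 25.4% of all genes tested. Hsf1, whose protein IER5 helps to activate, had 58.3 and 60.0 CPM in non-responders against 71.6 and 77.2 CPM in responders. The inducible chaperone genes Hspa1b and Hspa1a, near-identical copies between which reads cannot be placed with certainty, had log2 fold changes of 2.10 (SE 0.55) and -1.21 (SE 0.94). The part that tissue handling may have in these values and in those of the immediate early genes was not tested.

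NR4A and EGR genes are also expressed by activated T cells and macrophages, so leukocyte transcripts were read beside them. All 12 pan-leukocyte markers tested were lower on average in responders, and their summed level was 65.7 and 161 CPM in non-responders against 22.6 and 65.2 CPM in responders. For 12 macrophage and monocyte markers the sums were 85.6, 237, 13.5 and 84.7 CPM, with 11 of the 11 tested lower, and for 15 T and NK cell markers 0.967, 4.18, 0.447 and 1.83 CPM, with Trbc1 at 0 in all libraries and Cd3e at most 0.314 CPM. Ptprc was 0.645 CPM and Lyz2 0.943 CPM in responder replicate 1, the library in which Nr4a3 and Ier3 were highest. Not all leukocyte markers were that low in this library, where Itgb2 had 10.6, Arhgdib 9.48 and Cd68 9.48 CPM. Non-responder replicate 2, with the most leukocyte RNA, had the lowest Nr4a1, Nr4a2, Egr1 and Ier3 and the highest Egr3. Non-responder replicate 1, with less leukocyte RNA, had the lowest Nr4a3, Egr2, Csrnp1, Ier2 and Ier5, and 6 of the 10 genes were higher in non-responder replicate 2 than in replicate 1. The part of leukocyte RNA in the levels of these genes was not tested.

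Stromal markers were read in the same way. The summed level of 12 fibroblast markers was 10004 and 16301 CPM in non-responders against 8628 and 7436 CPM in responders. Most of each sum came from Col3a1, with 7607 and 13410 CPM against 6906 and 5800 CPM. Other markers of the list were scarce: Acta2 had 0.629 and 3.41 against 1.69 and 1.26 CPM. Thy1 had 0.145 and 0.808 against 0.0993 and 0.210 CPM. Of 11 tested, 10 were lower on average, Col1a1 among them (log2 fold change -1.34, SE 0.20). Col1a2 was higher on average (log2 fold change 0.24, SE 1.01), with groups that overlapped. Which cells the RNA of the fibroblast markers came from was not tested. The summed level of 9 endothelial markers was 26.0 and 29.6 against 14.4 and 18.0 CPM, of which Pecam1 gave 17.8 and 25.5 against 6.35 and 11.6 CPM. Of the 3 endothelial markers tested, Pecam1 was lower and the other two were higher on average. Sums for 8 neutrophil markers, nearly all from Mmp9, were 342 and 398 against 184 and 290 CPM, with Ly6g at 0 in every library, and for 7 dendritic cell markers 11.6 and 19.0 against 10.8 and 13.6 CPM. The group means of these sums were all lower in responders, where the summed NR4A and EGR levels were higher, and their part in the result was not tested.

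Genes of like pattern were sought among 9727 other tested genes of at least 5 CPM on average, by the root mean square distance of the centred log2(CPM + 1) profile to the mean profile of the 10 genes over the 4 libraries. Among the nearest were the TEAD transcription factor gene Tead4 (0.047 log2 units), the Wnt ligand gene Wnt7b (0.051), the neurotrophic factor gene Gdnf (0.052) and the Ly49 receptor gene Klra6 (0.068). Tead4 had 26.2 and 28.8 CPM in non-responders against 52.1 and 47.0 CPM in responders. With 4 libraries this likeness is a description only.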

How the data were processed

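RNA-seq counts of 4 libraries of sorted MC38 tumor cells were used, 2 per group, grouped by the sample titles. Per the file headers, the deposited counts are raw reads per gene from featureCounts 1.6.1, reverse-stranded (setting 2), on Ensembl release 91 exons; multi-mapping reads were not requested. STAR and mm10 (GRCm38) are named in the submitters' processing notes; the version of STAR is not given in the sources used here. Of 53379 identifiers 53274 matched a symbol.

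Counts were fitted with edgeR 4.0.16 in R 4.3.3 (filterByExpr with a minimum count of 10, leaving 13792 genes; TMM factors 0.952 to 1.04; robust quasi-likelihood test, group as the only term), with Benjamini-Hochberg adjustment over all genes. SEs were derived as |log2 fold change|/sqrt(F). The code of the fit was checked on simulated data for the sign and size of known fold changes. The power of the fit is not reported here. Alternatives were RLE, upper-quartile and library-size scaling, DESeq2 1.42.0, limma-voom (limma 3.58.1), other filters, a replicate block and each library left out.

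The 10 genes and the other lists were chosen with earlier results of these data known. Named genes are all 10, a set of context genes and markers written down by name, and the 5 genes of nearest pattern, of which 1 is not reported here. No 2 libraries were near-identical (chi-square per degree of freedom at least 22.5).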

Additional observations from a re-analysis of the deposited data

How the results depend on the processing

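Scaling, test and filter did not turn the direction of the 10 genes: under the alternatives that keep all libraries, 0 of 79 values of single genes changed sign and 0 moved by 1 SD between replicates or more. With 1 library left out, 1 of 40 changed sign, Ier3 (-0.13 without responder replicate 1). The median log2 fold change of the 10 genes was then 0.98 to 1.15 (0.98 without responder replicate 2), with 8 or 9 of them higher, and that of the other immediate early genes 0.31 to 0.67 (0.31 without responder replicate 2, 0.67 without non-responder replicate 2).

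Calls depended on the fit. The count over all genes was 0 with TMM, RLE, upper-quartile or library-size scaling, with limma-voom and with at least 5 CPM in 2 libraries, but 62 with DESeq2 and 212 without a filter on low counts. It was 41 with non-responder replicate 1 left out, 516 with the other non-responder library left out, 67 with responder replicate 1 left out and 173 with the other responder library left out. A fit without 1 library assumes that the lone library left in a group varies like the others. Libraries share only a replicate number: the deviations of the number 1 libraries from their group means correlated at 0.37 across genes, and the replicate block gave 32 calls, with 1 of the 10 genes (Nr4a1) among them. At an unadjusted p under 0.05, 9 of the 10 genes were higher with the block (5.22% of all genes) and 9 without a filter on low counts (2.51%), against 6 with neither change (2.57%). The cause of these differences was not tested. Precision is limited by the 2 libraries per group and, for Egr3, also by its 29 to 47 counts per library.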

Other observations

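Further immediate early and paralogous genes were near the limit of detection. Arc, a synaptic immediate early gene, had 0 and 0.090 CPM in non-responders against 1.04 and 0.367 CPM in responders, and Csrnp3, a paralog of Csrnp1, had 0.048 and 0.045 CPM against 0.447 and 0.262 CPM. Neither passed the filter on low counts, and both are named after their values were seen. Among the listed immediate early genes that were lower on average in responders were Errfi1, a feedback inhibitor of EGF receptor signalling, with 90.0 and 129 CPM against 83.7 and 75.1 CPM, and Klf10, a TGF-beta-inducible repressor, with 172 and 156 CPM against 138 and 114 CPM. In both, the responder libraries lay below the non-responder libraries. These too were named after their values were seen.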
